A study of Mus musculus with 12 samples.

Results

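The mitochondrial genome is a small circular chromosome that encodes core subunits of the respiratory chain, both RNAs of the mitochondrial ribosome and a set of tRNAs. Each of its strands is transcribed into long precursor RNAs, and enzymes cut these at the tRNAs to release the individual mRNAs and rRNAs. Over evolution, pieces of mitochondrial DNA have also been inserted into nuclear chromosomes, where the annotation lists them as pseudogenes. Purkinje cells are the output neurons of the cerebellar cortex; they are inhibitory, fire at high rates and depend on oxidative phosphorylation.

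The genes described here are the 37 genes of the mouse mitochondrial genome (13 mRNAs, 2 rRNAs and 22 tRNAs), taken by their symbols, and 4 copies of mitochondrial sequence on chromosome 1 (Gm29216, Gm28661, Gm10925 and Gm28437), 41 of the 43346 annotated genes in the deposited tables. They were measured by Smart-seq in 12 libraries from 1 male mouse aged 14 months, a Castaneus by C57Bl6 hybrid (strain B6CASTF1/J). Purkinje cells were excised and 13 of them homogenised as 1 pool, and every library was made from a share equal to 1 cell of its total RNA above 200 bases, with spike-ins. The libraries are technical replicates 1 to 6 and 8 to 13 of 1 group with no control, so p-values measure only the spread between splits of 1 pool. In such pooled RNA, fewer cells of a type and less RNA per cell cannot be told apart.

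The expected counts, which are read numbers in which reads that match several genes are divided between them, summed over annotated genes to between 13694551 (library 5) and 24108916 (library 10). The Purkinje markers Pcp2, Pcp4, Calb1, Itpr1, Car8 and Gng13 had counts in every library and summed to 23556 ± 4698 TPM (TPM is the length-scaled share of transcripts in a library; SD, n = 12). All 5 Bergmann glia markers had counts in some library, as did all 5 of the granule cell, oligodendrocyte and red blood cell lists and 4 of the 5 of the microglia list. The Bergmann glia list summed to 2010 ± 652 TPM, the granule cell list to 358 ± 177, the oligodendrocyte list to 188 ± 83.7, the red blood cell list to 744 ± 322 and the microglia list, in which Fcer1g had no count, to 102 ± 156.

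Libraries 4 and 13 stood apart from the other 10. The 41 genes held 9.77% and 9.48% of the gene counts in them, against 4.06 to 6.95% in the other 10 libraries, and each of the 19 measurable members had its highest TPM in library 4 (9 members) or library 13 (10 members). As a share of gene counts, without the spike-ins, 17 did so, while mt-Nd3 was highest in library 1 and mt-Atp8 in library 12. Other measures moved with this. Gene counts per count of the ERCC spike-ins were 15.3 in library 4 and 19.9 in library 13, and 18.4 in library 1, where the 41 genes held 6.31%; the other 9 libraries had 5.86 to 9.83. Annotated genes with a count of at least 1 numbered 11317 and 11581 in libraries 4 and 13, against 8497 to 10542 in the other 10. The Purkinje markers summed to 17210 and 17793 TPM there, against 19373 to 31071 TPM in the other 10, and the Bergmann glia markers to 2742 and 3386 TPM, against 1243 to 2488 TPM. The granule cell, oligodendrocyte and microglia sums of these libraries lay within the range of the other 10, and the red blood cell sum did so in library 4 but not in library 13 (1551 TPM, against up to 928). The part of these differences in the members' levels was not tested.

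**Figure D1:**
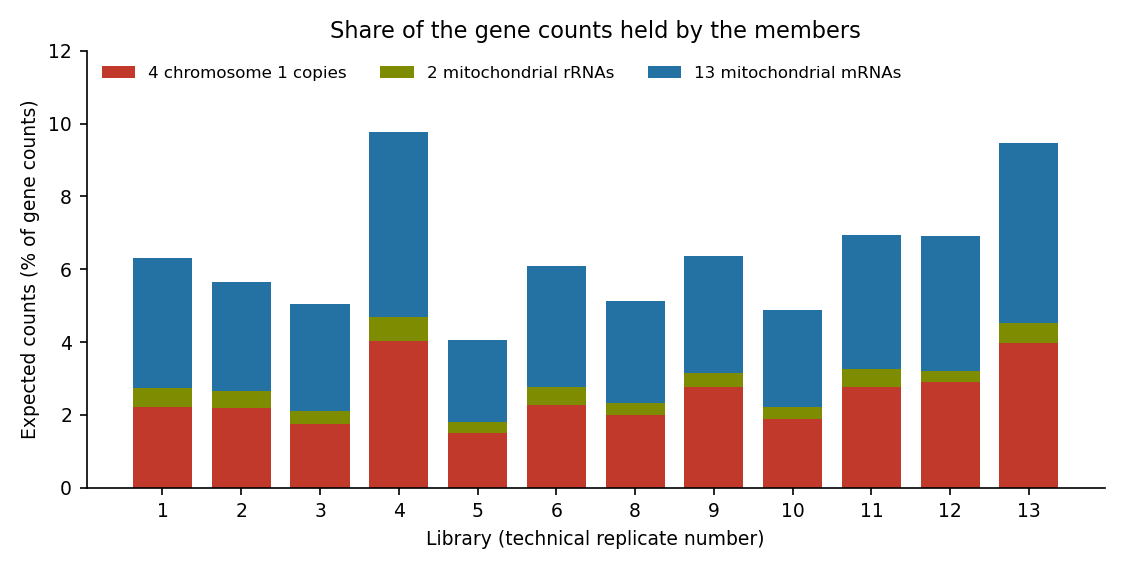
Expected counts of the copies, the mitochondrial rRNAs and the mitochondrial mRNAs as a percentage of the gene counts (y axis) in each of the 12 libraries (x axis), stacked. Libraries 4 (9.77%) and 13 (9.48%) reach above the other 10 (4.06 to 6.95%), and the copies take a large part of each bar.

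The sequences of the copies come first, because they decide which reads can be told apart. All 4 copies lie on the minus strand of chromosome 1 in mm10, in the order of the mitochondrial genes they match: Gm29216 at chr1:24615706-24616197, Gm28661 at chr1:24614885-24615565, Gm10925 at chr1:24613974-24614651 and Gm28437 at chr1:24613189-24613971. Each is annotated as an unprocessed pseudogene. The comparison used annotated reference sequences, and the sequences of this hybrid mouse were not examined. Compared in the GENCODE M21 transcripts, Gm28661 was identical over all its 681 bases to mt-Co2, Gm10925 over 678 bases to mt-Atp6 and Gm28437 over 783 bases to mt-Co3. Gm29216 matched bases 1054 to 1545 of mt-Co1 with 6 substitutions in 492 bases (98.8% identity). Counted from 1 at the first base of mt-Co1, with the base of mt-Co1 first and that of the copy second, these are T1056A, C1057T, A1059G, A1060G, C1062A and A1066T, all in the first 13 bases of the copy. The stretch is shown because it holds every difference between the 4 copies and the genes they match over 2634 aligned bases; capitals mark the 6 substituted bases:
mt-Co1 (chrM:6381-6425, plus strand): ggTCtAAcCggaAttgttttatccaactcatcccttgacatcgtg
Gm29216 (chr1:24616153-24616197, minus strand): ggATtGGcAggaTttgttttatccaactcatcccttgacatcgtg

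The other 3 copies differed from their genes only by where the annotation ends them. The ends of mt-Co3 and Gm28437, the pair of the 4 whose counts were divided most unequally, show this; the capital marks the base of mt-Co3 that the copy's annotation lacks:
mt-Co3 (chrM:9345-9390, plus strand): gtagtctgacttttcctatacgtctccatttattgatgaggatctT
Gm28437 (chr1:24613189-24613233, minus strand): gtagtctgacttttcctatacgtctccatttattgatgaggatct

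The same stretch of chromosome 1 holds 3 further annotated copies that are not among the 41 genes. Gm10222 was identical to mt-Nd4l over 294 bases, Gm28439 to mt-Nd4 over 876 bases, and Gm28438 differed from mt-Nd3 at 1 of 345 bases (T3C, from the first base of mt-Nd3). Between Gm28661 and Gm10925 the annotation leaves 233 bases of chromosome 1 with no copy, where the mitochondrial genome has 230 bases between mt-Co2 and mt-Atp6 that hold the tRNA mt-Tk and most of mt-Atp8. Windows of 100 bases put a number on the sharing. Of the windows of mt-Co2, 99.5% occurred in another annotated gene, as did 99.5% of those of mt-Atp6, 99.9% of mt-Co3, 97.6% of mt-Nd3, 98.5% of mt-Nd4l, 60.8% of mt-Nd4, 30.8% of mt-Co1 and 3.19% of mt-Nd2. No window of mt-Nd1, mt-Atp8, mt-Nd5, mt-Nd6, mt-Cytb, mt-Rnr1 or mt-Rnr2 did. On chromosome 2, Gm13339 shared windows with mt-Nd2, Gm13340 with mt-Co1 and Gm13341 with mt-Co2. Their counts summed to 42.2, 915 and 880 over the 12 libraries.

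The tRNAs could not be measured, and nearly every other member was found throughout. Of the 41 genes, 18 reached 50 counts in all 12 libraries, mt-Nd4l did so in 10 and the 22 tRNAs in none; over all annotated genes, 3.72% (1613 of 43346) reached 50 counts throughout. The tRNAs are 59 to 75 bases long. The deposited tables give a feature an effective length (the number of places where a read can start) of its length less 99, and of 0 below 100 bases. All 2218 annotated genes with an effective length of 0, the tRNAs among them, were listed at 0, so these zeros carry no measurement. The 19 members with an effective length above 0 ranked high: 6 of them were among the 10 annotated genes with the highest mean TPM and 15 among the first 100.

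Complex I, the NADH dehydrogenase that feeds electrons into the chain, has 7 mitochondrially encoded subunits, which spanned the widest range. mt-Nd1 ran from 4614 to 9857 TPM over the 12 libraries with a median of 5324. mt-Nd4 ran from 1788 to 5598 TPM with a median of 2983, and mt-Nd2 from 1355 to 3673 with a median of 2073. The lowest values of mt-Nd1 and mt-Nd2 were in library 10, that of mt-Nd4 in library 8, and the highest of all 3 in library 13. mt-Nd6, the only mRNA encoded on the opposite strand (chrM:13552-14070, minus), ran from 701 to 1756 TPM with a median of 1052. mt-Nd3 ran from 339 to 837 TPM with a median of 551. mt-Nd5 had a median of 448 TPM and a highest value of 923, and library 11, with 149.9 TPM, lay below the others. mt-Nd4l stood at 0 in libraries 2 and 8, had a median of 50.1 TPM and reached 131 TPM in library 13. In libraries 2 and 8, its copy Gm10222, identical in sequence, was given 2121 and 996 counts.

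Complex III, which passes electrons to cytochrome c, has 1 mitochondrially encoded subunit, cytochrome b. mt-Cytb ran from 3385 TPM in library 5 to 10407 TPM in library 4, with a median of 5586. It shares no window with another gene.

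The 3 mitochondrial subunits of complex IV, cytochrome c oxidase, form its catalytic core, and all 3 have a copy among the 4. mt-Co1 ran from 2563 to 6993 TPM with a median of 3525, and mt-Co2 from 2453 to 6259 TPM with a median of 3823. mt-Co3 was lower in every library, from 606 TPM in library 3 to 1661 TPM in library 13, with a median of 1213. The highest mt-Co3 value lay below the lowest value of both other subunits.

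The mitochondrially encoded subunits of complex V, the ATP synthase, are those of mt-Atp8 and mt-Atp6, which lie on 1 mRNA with overlapping reading frames. mt-Atp8 ran from 5172 to 13516 TPM with a median of 6601, and mt-Atp6 from 4683 to 11329 TPM with a median of 6683. Their ranges overlapped. The overlap is shown because the genes share these bases, yet no window of mt-Atp8 occurred in another annotated gene, since the overlap is shorter than a window. Capitals mark the 43 shared bases (chrM:7915-7981, plus strand):
mt-Atp8 and mt-Atp6: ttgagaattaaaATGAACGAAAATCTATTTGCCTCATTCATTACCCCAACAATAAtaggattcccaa

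The rRNAs of the mitochondrial ribosome differed from each other in every library. mt-Rnr2, the large-subunit rRNA (chrM:1094-2675), ran from 1646 to 3867 TPM with a median of 2119. mt-Rnr1, the small-subunit rRNA (chrM:70-1024), ran from 283 TPM in library 12 to 1165 TPM in library 4, with a median of 867. The ranges did not overlap.

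The copies were listed above the genes they match. Gm28437 ran from 8121 to 23844 TPM with a median of 12675. Gm10925 ran from 6121 to 19175 TPM with a median of 8945, and Gm28661 from 4435 to 15626 TPM with a median of 7692. Gm29216 ran from 7789.5 to 16435 TPM with a median of 9397. By mean TPM they took places 3 to 6 among all annotated genes, while mt-Co3, the match of the highest copy, took place 80.

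**Figure D2:**
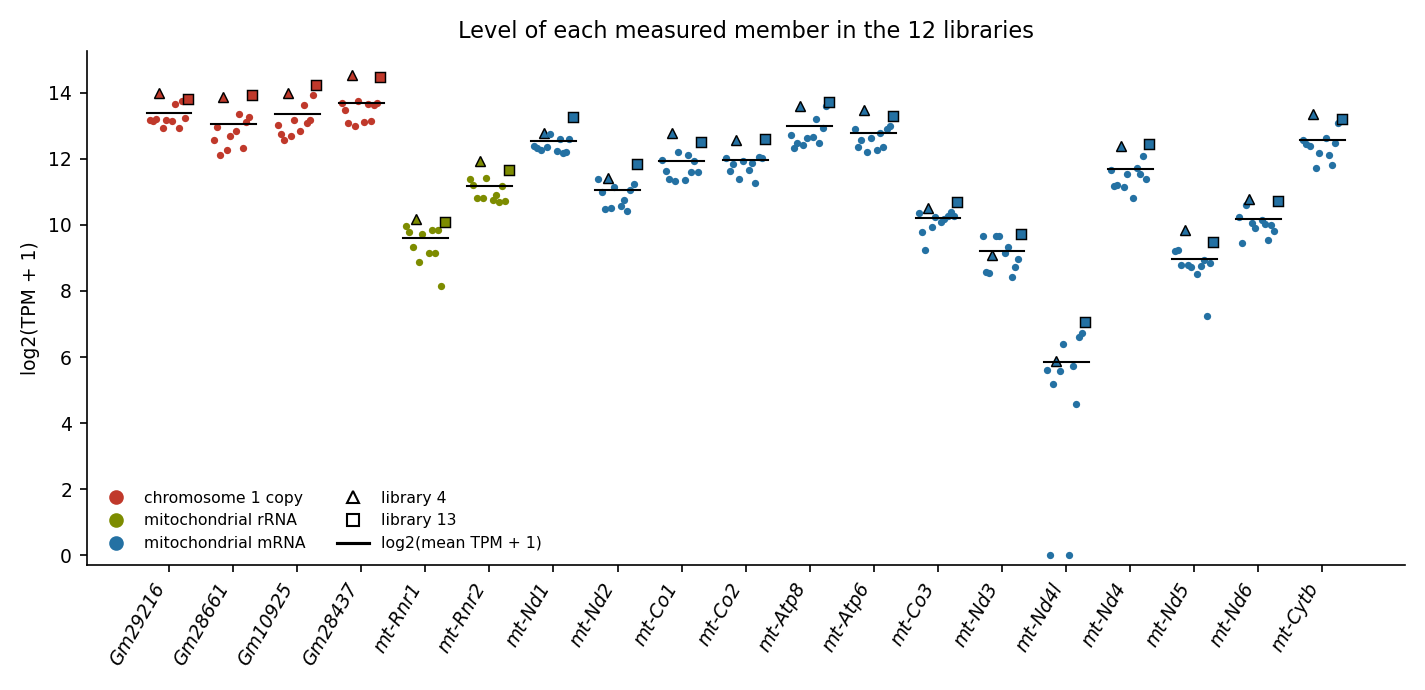
log2(TPM + 1) (y axis) of the 4 copies, the 2 rRNAs and the 13 mRNAs (x axis, the mitochondrial genes in genome order) in the 12 libraries, 1 point a library, with libraries 4 (triangles) and 13 (squares) outlined and a line at the log2 of the mean TPM plus 1. The copies lie highest, mt-Nd4l lowest with 2 libraries at 0, and libraries 4 and 13 lie near the top of most members.

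For each copy, the deposited counts divide reads of nearly the same sequence between a chromosome 1 feature and a mitochondrial gene, and the division differed widely from pair to pair. Gm28437 was given 91.4 ± 1.95% of its summed count with mt-Co3 (88.0 to 94.3%), Gm28661 66.9 ± 5.64% with mt-Co2 (54.5 to 73.6%), Gm10925 59.0 ± 5.05% with mt-Atp6 (50.2 to 65.8%) and Gm29216 43.2 ± 4.63% with mt-Co1 (34.6 to 49.0%; SD, n = 12). Without libraries 4 and 13 the mean shares were 90.9, 66.1, 58.3 and 43.9%. The 3 further copies ran from nearly all to nearly none: Gm10222 was given 90.6 ± 6.65% with mt-Nd4l, Gm28438 68.9 ± 5.83% with mt-Nd3, and Gm28439 0.00406 ± 0.00245% with mt-Nd4. Gm28439 covers 60.8% of the windows of mt-Nd4, Gm29216 26.3% of those of mt-Co1 and Gm28437 99.9% of those of mt-Co3, so the shares given to the copies do not follow this coverage in order.

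**Figure D3:**
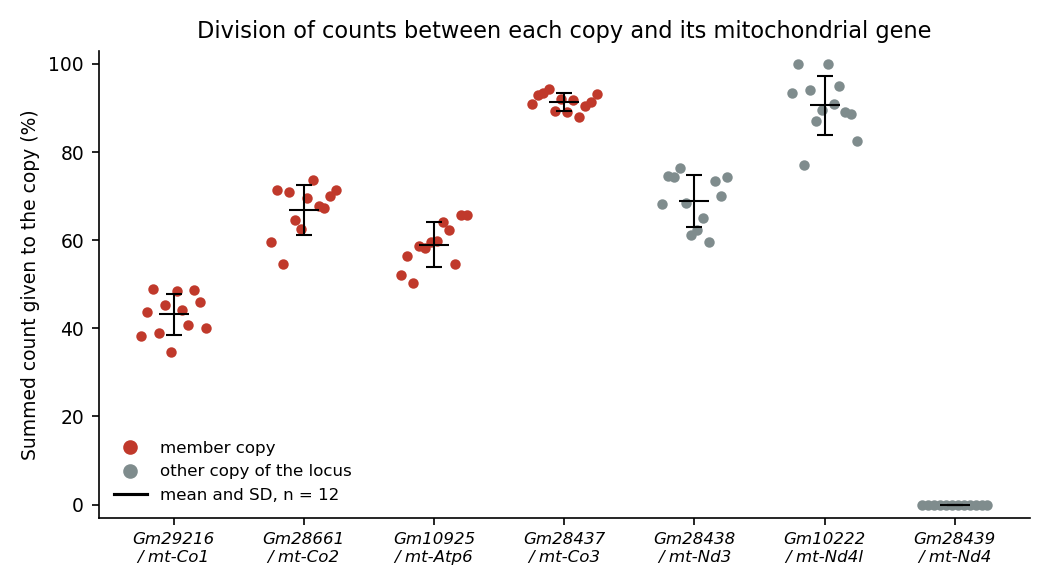
Share of the summed expected count of a copy and its mitochondrial gene that was given to the copy (y axis, percent), for the 4 member copies and 3 other copies of the locus (x axis), 1 point a library with the mean and SD. The shares run from 91.4% for Gm28437 to 43.2% for Gm29216 among the member copies, and Gm28439 lies near 0.

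The authors' own error estimate for each count shows how firmly the division was fixed. The deposited tables give a posterior SD, an uncertainty of the read division within a library. For mt-Co3 its median over the 12 libraries was 75.6% of the posterior mean, the highest of the 3587 annotated genes that averaged 1000 counts or more, whose median was 0. It was 34.9% for Gm28437, 29.6% for mt-Co2, 20.7% for Gm28661, 15.3% for mt-Atp6, 13.4% for mt-Nd3 and 12.2% for Gm10925, and 48.3% for mt-Nd4l, which has a lower count. These were far above Gm29216 (0.297%) and mt-Co1 (0.223%). That pair has 6 substitutions in 492 bases and a long unshared part of mt-Co1. Gm28438 and mt-Nd3 also differ, at 1 of 345 bases, and what sets the pairs apart was not tested. The median posterior SD was 0.00412% for mt-Nd4, with 60.8% of its windows shared. For mt-Co3, mt-Co2 and Gm28437 the posterior SD within a library exceeded the spread between libraries, since the CV (SD over mean) of their share of gene counts was 0.213, 0.260 and 0.345. For the 7 members with no shared window the median posterior SD was below that of mt-Nd2, at most 0.000150% (mt-Nd5).

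**Figure D4:**
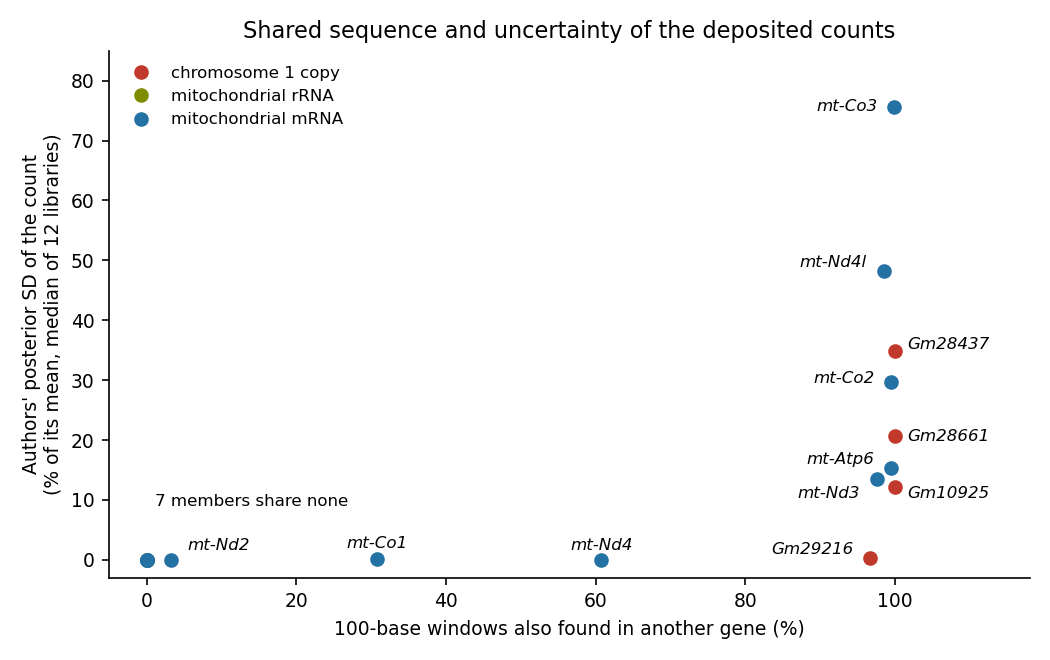
Authors' posterior SD of the count as a percentage of its mean, median of the 12 libraries (y axis), against the percentage of a gene's 100-base windows found in another annotated gene (x axis), for the 19 measurable members. Members that share almost all windows run from 0.297% (Gm29216) to 75.6% (mt-Co3), and mt-Nd4 (60.8% of windows shared), mt-Co1, mt-Nd2 and the members that share none lie near 0.

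The order of the mRNAs depended on this division and on how length was treated. By mean TPM the order was mt-Atp8, mt-Atp6, mt-Cytb, mt-Nd1, mt-Co2, mt-Co1, mt-Nd4, mt-Nd2, mt-Co3, mt-Nd6, mt-Nd3, mt-Nd5 and mt-Nd4l, with mt-Atp8 143-fold above mt-Nd4l and 16.2-fold above mt-Nd5. Of the 12 neighbouring pairs in it, 6 had a mean within-library log2 difference no larger than its SD: mt-Atp8 and mt-Atp6, mt-Atp6 and mt-Cytb, mt-Cytb and mt-Nd1, mt-Co2 and mt-Co1, mt-Co3 and mt-Nd6, and mt-Nd3 and mt-Nd5. Per kb of annotated length, mt-Atp6 came first and mt-Atp8 at place 4; the annotated length of mt-Atp8 is 204 bases and its effective length 105. With the counts of the 7 copies of the locus added to the genes they match, mt-Co3 was at place 2, against place 9 per kb without them.

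As CPM (counts scaled to 1000000 gene counts) per kb of annotated length, mt-Co3 averaged 13046 ± 4286 with the copies added and 1075 ± 229 as deposited, a 12.1-fold difference (SD, n = 12). mt-Atp6 averaged 15539 ± 4880 with the copy added and 6255 ± 1648 as deposited, mt-Co2 11093 ± 3754 and 3556 ± 926, and mt-Co1 6684 ± 1793 and 3828 ± 1195. mt-Nd4l averaged 426 ± 193 with Gm10222 added and 39.1 ± 27.9 as deposited, and stayed last. How much of the copies' counts belongs to the mitochondrial genes is not fixed by the tables, and for mt-Co1 the copy covers only the last 492 of 1545 bases. mt-Cytb (5853 ± 1986), mt-Nd1 (5533 ± 1109), mt-Atp8 (4351 ± 1501), mt-Nd6 (969 ± 271) and mt-Nd5 (493 ± 174) have no copy among the 7, so their levels on this scale do not move.

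**Figure D5:**
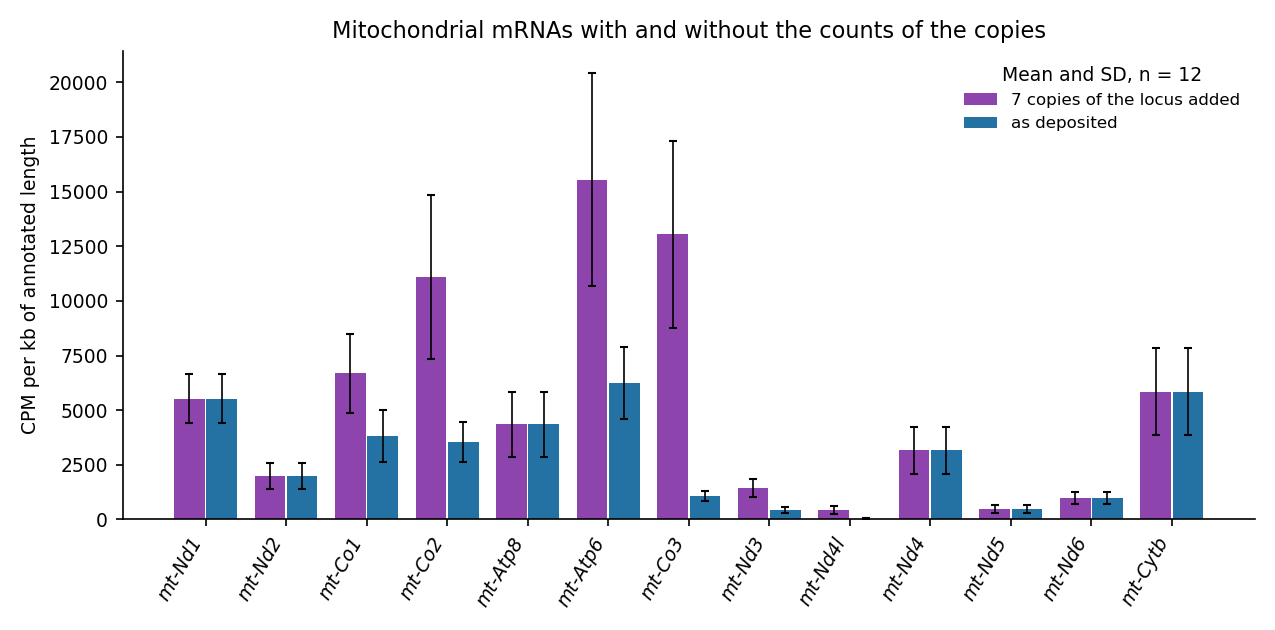
CPM per kb (y axis) of the 13 mitochondrial mRNAs in genome order (x axis), with the counts of the 7 copies of the locus added (left bars) and as deposited (right bars); bars are means and whiskers SDs over 12 libraries. mt-Co3 averages 13046 with the copies added and 1075 as deposited, and mt-Cytb does not move.

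Within libraries, 14 pairs of members were compared on log2(TPM + 1) with an exact two-sided permutation test that flips the sign of each library's difference, Benjamini-Hochberg adjusted over the 14; 13 differed, 12 of them in the same direction in every library. The lowest p this test can give is 0.000488, which is 0.000570 after adjustment and is the adjusted p of those 12. The genes that share an mRNA came first. mt-Atp8 exceeded mt-Atp6 by 0.18 ± 0.24 (SD, n = 12) in 9 libraries, an exact adjusted p of 0.0310 that became 0.0947 without libraries 4 and 13 and also missed 0.05 without library 5, 8, 9, 12 or 13 alone (0.0557 to 0.0620). Per kb of annotated length mt-Atp8 was below mt-Atp6 (−0.55, exact adjusted p = 0.000570), so the direction of this pair depends on the length used. mt-Nd4l lay below mt-Nd4, with which it also shares an mRNA, in 12 of 12 libraries (−6.65 ± 2.12), and also with the copies added (−3.01).

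The light-strand mRNA lay between its neighbours. mt-Nd6 exceeded mt-Nd5, which it overlaps end to end by 14 bases, by 1.24 ± 0.64 in 12 of 12 libraries, and lay below mt-Cytb on its other side (−2.39 ± 0.44). The strand of the libraries is not given in the sources used here, so reads from mt-Nd6 and from heavy-strand RNA across it cannot be told apart. Not corrected for length, as CPM, mt-Nd6 (519 bases) was below mt-Nd5 (1824 bases) by a log2 difference of −0.79. On the heavy strand, mt-Rnr2 exceeded mt-Rnr1 by 1.61 ± 0.37, mt-Nd5 lay below mt-Nd4 (−2.73 ± 0.73) and mt-Nd2 lay below mt-Nd1 (−1.51 ± 0.28), each in 12 of 12 libraries.

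The oxidase subunits gave different answers by scale. mt-Co2 and mt-Co1 differed by 0.04 ± 0.27 (exact adjusted p = 0.619), from −0.33 to 0.45 over the libraries. mt-Co3 lay below mt-Co1 (−1.71 ± 0.34) and below mt-Co2 (−1.75 ± 0.38) in 12 of 12 libraries. With the 7 copies added, mt-Co3 was instead above mt-Co1 (0.94) and above mt-Co2 (0.24), and mt-Co2 above mt-Co1 (0.70), with exact adjusted p-values of 0.000610, 0.00146 and 0.000610. The differences also spread less over the libraries once the copies were added: per kb, the SD of mt-Co3 minus mt-Co1 was 0.18 with the copies and 0.34 without, that of mt-Co3 minus mt-Co2 0.20 and 0.38, and that of mt-Atp8 minus mt-Atp6 0.12 and 0.24. The SD of mt-Co2 minus mt-Co1 was 0.25 with the copies and 0.27 without. The deposited count of mt-Co3 behind these differences has the posterior SD of 75.6% given above.

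Each copy exceeded its mitochondrial gene in 12 of 12 libraries: Gm28437 over mt-Co3 by 3.44 ± 0.36, Gm29216 over mt-Co1 by 1.48 ± 0.27, Gm28661 over mt-Co2 by 1.04 ± 0.36 and Gm10925 over mt-Atp6 by 0.54 ± 0.30 on the log2 scale (exact adjusted p = 0.000570 each). These are differences between deposited values for sequences that are the same or nearly so in the annotation, and they do not show that chromosome 1 is transcribed. The smallest difference of Gm10925 over mt-Atp6 in a library was 0.02. Not corrected for length, Gm29216 (492 bases) was below mt-Co1 (1545 bases) by a log2 difference of −0.40 as CPM.

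The listed values of copies and genes moved together from library to library. Each copy and its gene divide reads of nearly the same sequence, so their p-values cannot show that separate RNAs moved together. Over the 12 libraries, which share 1 total per library in TPM, log2(TPM + 1) of Gm10925 and mt-Atp6 had a Pearson r of 0.85 and a Spearman rho of 0.80 (permutation test, adjusted p = 0.00276 and 0.00781), Gm29216 and mt-Co1 0.81 and 0.69 (0.00324 and 0.0171), Gm28661 and mt-Co2 0.80 and 0.72 (0.00324 and 0.0143) and Gm28437 and mt-Co3 0.70 and 0.78 (0.0150 and 0.00844); p-values are two-sided and adjusted over 8 relations. Within the 10 libraries left without libraries 4 and 13, the Pearson values were lower, at 0.71, 0.55, 0.52 and 0.55. Those libraries were left out as the farthest from the median of the copy, which narrows the range, and the fall was not tested. On log2(CPM + 1), which leaves out the spike-ins, rho of Gm29216 and mt-Co1 was 0.58 and no longer passed (permutation test, adjusted p = 0.0587). mt-Atp8 and mt-Atp6 had an r of 0.88 and a rho of 0.85 (permutation test, adjusted p = 0.00120 and 0.00424), and an r of 0.78 without libraries 4 and 13. mt-Rnr1 and mt-Rnr2 had 0.79 and 0.85 (permutation test, adjusted p = 0.00397 and 0.00424), and 0.88 without libraries 5 and 12, the farthest from the median. mt-Nd4l and mt-Nd4 had 0.65 and 0.73 (permutation test, adjusted p = 0.0262 and 0.0143), and 0.49 without libraries 2 and 8, where mt-Nd4l is listed at 0. mt-Nd6 and mt-Nd5, on opposite strands, had 0.33 and 0.24 (permutation test, adjusted p = 0.307 and 0.444), and −0.17 without libraries 4 and 13. The labels give no batch, so no within-batch value could be computed.

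The members varied between libraries by less than the median gene, and are far more abundant than it. The median CV of the share of gene counts was 0.293 over the 15 measurable mitochondrial genes and 0.359 over the 4 copies, beside 1.73 over the 13899 genes that averaged 5 counts or more. mt-Nd1 had the lowest CV of the members (0.201), followed by mt-Co3 (0.213), and mt-Nd4l the highest (0.713). Without libraries 4 and 13 the CV of mt-Nd1 was 0.113 and that of Gm28437 0.197, which is 0.345 over all 12 libraries; mt-Co3, at 0.211, then came after mt-Co2 (0.191) and Gm28437. With its copy added, the CV of mt-Co3 over the 12 libraries was 0.329. All 19 varied beyond Poisson sampling (chi-square test, adjusted over all genes), as did 99.9% of the genes tested, so this is no property of the members. Against the trend of genes of similar abundance, no member passed in edgeR's quasi-likelihood test with Benjamini-Hochberg adjustment, in which 0.0144% of genes were called (2 of 13899); 6 of the 19 members had an unadjusted p of at most 0.05, beside 0.684% of all genes (95 of 13899). In edgeR's newer form of the same fit, 4 members passed, among 0.0935% of genes called (13 of 13899): Gm28437 (adjusted p = 0.000222), mt-Cytb (0.000647), Gm10925 (0.00115) and Gm28661 (0.00718). Their dispersions were 9.60, 8.98, 8.49 and 7.03 times the trend in the default form, while mt-Nd3 was at 0.0565 times the trend. These ratios did not follow the CV. mt-Cytb averaged 124193 counts with a CV of 0.339, while mt-Nd5 averaged 16645 counts with a CV of 0.353 and was at 0.732 times the trend. mt-Nd3 averaged 2734 counts with a CV of 0.293. How far the ratio depends on abundance among the members was not tested. Members above the trend numbered 12 of 19 (63.2%), beside 66.0% of all genes tested.

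The nuclear genes that transcribe, process and stabilise mitochondrial RNA were together listed far below the mitochondrial mRNAs. Of 30 such genes, 29 matched the tables; they summed to 733 ± 315 TPM (SD, n = 12), beside 43940 ± 12793 TPM for the 13 mRNAs. Slirp, which with Lrpprc binds and stabilises mitochondrial mRNAs, was the highest, from 1.25 to 677 TPM with a median of 364. Its mean of 335 TPM and that of Hsd17b10 lay above that of mt-Nd4l as deposited (56.6 TPM). By median, Slirp still lay above mt-Nd4l (50.1 TPM), but Hsd17b10 lay below it (8.25 TPM). The deposited level of mt-Nd4l depends on the read division, since the copy Gm10222 was given 90.6% of its summed count with mt-Nd4l and averaged 563 TPM. Hsd17b10, a subunit of the mitochondrial RNase P that cuts at tRNAs, averaged 67.0 ± 92.3 TPM, Ssbp1, which coats single-stranded mitochondrial DNA, 44.2 ± 38.3, and Grsf1, an RNA granule protein, 37.6 ± 51.3. Fastkd3, of a family that acts on mitochondrial RNA, was the lowest at 0.48 ± 1.19. Polrmt, the mitochondrial RNA polymerase, averaged 16.6 ± 38.2 TPM with a median of 0. Of the 29 genes, 5 had a count in every library, beside 8.46% of all annotated genes, and none reached 50 in all of them, beside 3.72%. None was called beyond the abundance trend by edgeR's quasi-likelihood test, and none had an unadjusted p of at most 0.05. In libraries 4 and 13 the list summed to 1073 and 703 TPM, within the range of the other 10 libraries (192 to 1292).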

How the data were processed

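RNA was measured in 12 Smart-seq libraries of 1 group, split from 1 pool of Purkinje cells. Reads were quantified on mm10 with GENCODE M4, per the deposited text files; aligner, quantification program and library strand are not stated in the sources used here. Per the file headers, the deposited gene tables hold expected counts, in which shared reads are divided between genes, TPM and FPKM (both scaled to effective length; TPM sum to 1000000 with spike-ins included, and FPKM is not printed), and a posterior mean count with its SD. Features with numeric identifiers and spike-ins were left out of gene totals. GENCODE M21, of the same assembly, gave symbols, coordinates and sequences; 42462 of 43346 gene identifiers matched.

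Copies were aligned locally to mitochondrial genes with Biopython 1.88, with gaps allowed. The best alignments held no gap and were extended without gaps to both ends of each copy. Expected counts were rounded for the Poisson test and for edgeR 4.0.16 (TMM factors, intercept-only glmQLFit in its default form, upper-tail F test against the abundance trend, genes averaging 5 counts or more). Both forms of glmQLFit had been seen before the installed default was taken as the main one; the newer form, the addition of all 7 copies, the fit with copies merged and the removal of libraries 4 and 13 are alternatives added after the data were seen. Both tests were run on simulated data. The variation between simulated libraries was set rather than fitted to these libraries, so the power of the tests here is not shown. Pairs used log2(TPM + 1), which understates differences of low values, and correlations used 100000 permutations. The threshold was an adjusted p of 0.05. Because no molecular identifiers mark PCR duplicates, the counting error from totals of 13694551 to 24108916 gene counts is only a lower bound on the error. Counting error also does not cover the read division within copies.

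The members, gene lists, pairs and alternatives were chosen with earlier results of these data known. The naming rule took all measured members and, of the nuclear list, the 4 with the highest mean TPM, the lowest and any called; Polrmt was named after its values were seen. Prorp was not matched.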

Additional observations from a re-analysis of the deposited data

How the results depend on the processing

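The limits of these values are the division of reads between copies and genes of the same sequence, the effective length of short genes, the unstated strand, and 1 pool of 1 mouse with 2 libraries apart. Of 343 alternative values for 29 results, 317 were counted as unchanged, by a rule for each kind of result. To count as unchanged, a pair, or a Pearson correlation as CPM, had to keep its direction and its side of the threshold. The mitochondrial share had to move by less than its SD. Counts, and correlations without the 2 farthest libraries, had to stay within a set margin, with no test. Many of the 343 values leave out 1 library at a time. The mitochondrial share of gene counts, 3.86%, was 6.39% with the 4 copies added, 3.51% without libraries 4 and 13, and between 3.69 and 3.98% without single libraries. The order of the mRNAs kept 5 of 13 places per kb, and 2 with the 4 or 7 copies added. For mt-Atp8 minus mt-Atp6, the log2 difference was −0.55 per kb, −2.29 as CPM, −1.85 with the 7 copies added and 0.16 without libraries 4 and 13; without single libraries it ran from 0.139 to 0.212. For mt-Co2 minus mt-Co1 it was −0.091 per kb, −1.27 as CPM and 0.70 with the 7 copies added. As CPM, mt-Nd6 minus mt-Nd5 was −0.79 and Gm29216 minus mt-Co1 −0.40; with the 7 copies added, mt-Co3 minus mt-Co1 was 0.94 and mt-Co3 minus mt-Co2 0.24. CPM leaves length out by construction, and the cause of the other shifts was not tested. Without the 2 libraries farthest from the median, r was 0.55 for Gm29216 and mt-Co1, 0.52 for Gm28661 and mt-Co2, and −0.17 for mt-Nd6 and mt-Nd5. In edgeR, the newer form of the fit called 4 members and 13 genes, against 0 and 2; the default form without single libraries called 1 to 2 genes and no member (1 gene without library 1), and the newer form was not run without them. No paired analysis was possible because there is 1 group. Depth did not limit the 18 members with 50 counts in every library; the tRNAs have no effective length, and what limits mt-Nd4l was not tested.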
